A study of Mus musculus with 4 samples.

Results

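The genes described here are the endoderm transcription factors *Gata4*, *Gata6*, *Sox17*, *Sox7*, *Foxa1*, *Foxa3* and *Hnf4a* and the endocytic adaptor *Dab2*, which are 8 of the 23420 gene symbols counted. They were chosen by their counts in these same libraries, WT against KO, so their levels and fold changes are a description and carry no test. RNA-seq covered 4 libraries of cervical motor neuron (MN) cultures, 2 from wild type (WT) and 2 from *Patz1* -/- (KO) cells, and the comparison asks how the loss of PATZ1, a zinc finger protein studied for its place at chromatin borders, changes the transcriptome of such cultures. All 4 cultures came from E14 mouse embryonic stem cells (mESCs) kept in LIF with MEK and GSK3 inhibitors. The cells formed embryoid bodies for 2 days, which were then given retinoic acid (RA) at 1 μM and the Hedgehog pathway activator SAG, a smoothened agonist, at 0.5 μM. The KO was made with CRISPR/Cas9 in single clones, several KO lines were derived, and which clone gave which library is not labelled. Sample titles speak of ESCs, whereas the source and cell type fields say MNs.

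Endoderm is the germ layer of the gut, liver and yolk sac lining, and its extraembryonic branch, the primitive endoderm, forms next to the early epiblast. GATA6 and GATA4 are zinc finger factors that set up primitive endoderm, and SOX17 and SOX7 are HMG box factors that act with and after them. FOXA1 and FOXA3 are forkhead factors that bind closed chromatin at gut and liver genes, and HNF4A is a nuclear receptor that switches on lipoprotein and serum protein genes in visceral endoderm and liver. DAB2 links cargo receptors to clathrin in the absorptive visceral endoderm. None of these genes defines MNs, and several have roles elsewhere: *Gata4* and *Gata6* in heart mesoderm, *Sox17* and *Sox7* in endothelium, and *Foxa1* in the floor plate of the neural tube.

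Library totals ran from 14769104 to 23881522 counts. *Patz1* itself had 1363 and 1499 counts in WT against 1154 and 714 in KO, which is 92.8 ± 1.96 (SD, n = 2) against 45.1 ± 3.56 (SD, n = 2) CPM, counts scaled to the same library total. Its log2 fold change of −1.04 (SE 0.10) had an adjusted p of 1.09e-07 in edgeR's quasi-likelihood test, so the labelled genotypes differed in the targeted gene, and *Patz1* RNA was still counted in both KO libraries. MN markers were present in every library. Of 9 MN markers tested, 7 were higher in KO and 0 were lower, beside 24.1% of the 14269 genes tested that were called higher and 47.9% called in either direction. *Mnx1*, a homeobox gene of postmitotic MNs, had 774 and 805 counts in WT against 2383 and 1525 in KO (log2 fold change 0.88, SE 0.09). *Chat*, the enzyme that makes acetylcholine, changed by 0.99 (SE 0.10), and *Lhx4*, a LIM homeobox factor, by 0.87 (SE 0.10), all with edgeR adjusted p of 1.81e-06 or less. *Isl1* and *Olig2* did not pass, at −0.19 (adjusted p = 0.0768) and −0.17 (adjusted p = 0.148).

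All 8 endoderm genes were read in every library, at low levels. Together they held 647 and 792 reads in WT against 156 and 124 in KO. Their summed level was 43.4 and 49.8 CPM in WT and 6.43 and 7.39 CPM in KO, 6.74 times lower in KO. *Dab2* and *Foxa1* made up most of the WT sum, at 37.2% and 37.9% for *Dab2* and 25.8% and 27.8% for *Foxa1*. In KO the share of *Sox7* was larger, at 33.3% and 16.1% of the endoderm counts against 4.79% and 3.28% in WT. Since these are bulk cultures, fewer cells with RNA of these genes and less RNA per cell cannot be told apart. Whether the reads came from endoderm or from other cells was not tested.

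Both KO libraries lay below both WT libraries for 7 of the 8 genes, and *Sox7* was the exception. Over all genes tested, 37.2% showed that order. The filter on low counts passed 7 of the 8 and left out *Foxa3*. In 4 of the 7 (*Gata4*, *Gata6*, *Sox17* and *Hnf4a*) at least 1 KO library was under 10 counts, so these passed through their WT counts and had to be lower in KO to be listed. Of the 7, 6 were past the threshold in the lower direction, which 23.8% of all genes tested were, and nothing is read from that count because the same contrast chose the genes.

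**Figure D1:**
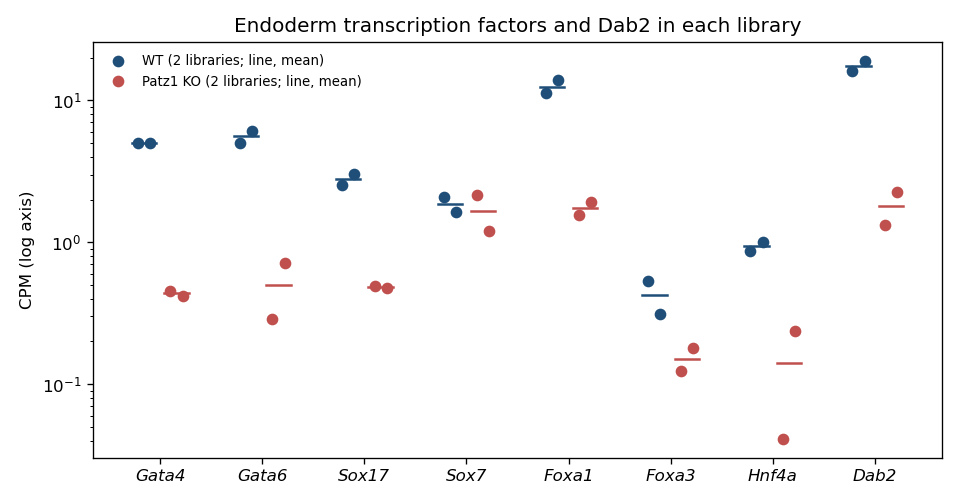
Level of each endoderm gene in each library, in CPM on a log axis. Points are libraries (WT blue, Patz1 KO red, 2 each) and short lines are group means. The KO points lie below the WT points for every gene but Sox7, where WT (2.08 and 1.63 CPM) and KO (2.14 and 1.19 CPM) overlap, and Hnf4a spreads most among KO libraries (0.0412 and 0.238 CPM).

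*Gata4* lies at chr14:63198922-63271692 on the minus strand (GRCm38) and *Gata6* at chr18:11052064-11085635 on the plus strand. *Gata4* had 74 and 80 counts in WT against 11 and 7 in KO. The WT libraries were nearly equal at 4.96 and 5.03 CPM, and the KO libraries were at 0.453 and 0.417 CPM. Its log2 fold change was −3.49 (SE 0.34), and the summed counts per effective library size were 11.4-fold lower in KO, with a 95% exact counting interval of 6.97 to 19.7. The folds of the other genes below are on this scale too. *Gata6* had 75 and 97 counts in WT against 7 and 12 in KO, or 5.56 ± 0.753 (SD, n = 2) and 0.502 ± 0.302 (SD, n = 2) CPM. The log2 fold change was −3.55 (SE 0.36), and the counting interval of the 12.1-fold difference was 7.49 to 20.5. Leaving out KO library 1 gave −2.95 for *Gata6* and leaving out KO library 2 gave −4.23. The pair kept similar counts to each other in WT, with 0.987 and 0.825 *Gata4* reads per *Gata6* read, whereas the KO ratios of 1.57 and 0.583 rest on 7 to 12 reads each. *Gata6* overlaps the antisense gene *1010001N08Rik*, and since the strand setting of the counting is not given, reads of the pair cannot be separated.

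*Sox17* (chr1:4490931-4497354, minus strand) had 38 and 48 counts in WT against 12 and 8 in KO. Its level was 2.78 ± 0.330 (SD, n = 2) CPM in WT and 0.486 ± 0.0127 (SD, n = 2) CPM in KO. The log2 fold change was −2.50 (SE 0.38), and the counting interval of the 5.73-fold difference was 3.49 to 9.84. It shares its locus with the antisense gene *Gm37587*. *Sox7* (chr14:63943673-63950732, plus strand), its close relative, had 31 and 26 counts in WT against 52 and 20 in KO. The KO libraries lay above and below both WT libraries, at 2.14 and 1.19 CPM against 2.08 and 1.63 CPM. Its log2 fold change was −0.11 (SE 0.35), and the KO to WT ratio of summed counts per effective library size was 0.948 with a counting interval of 0.661 to 1.37. That interval covers counting error alone and not the spread between libraries. Leaving out each library in turn gave log2 fold changes from −0.63 to 0.22. The sign turned when WT library 1 (0.07) or KO library 2 (0.22) was left out. These libraries thus do not resolve whether *Sox7* differed. There were 1.23 and 1.85 *Sox17* reads per *Sox7* read in WT and 0.231 and 0.400 in KO, so *Sox7* was the more counted of the pair in both KO libraries.

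*Foxa1* (chr12:57540628-57546916, minus strand) had 167 and 220 counts in WT against 38 and 32 in KO. Levels were 12.5 ± 1.85 (SD, n = 2) CPM in WT and 1.74 ± 0.241 (SD, n = 2) CPM in KO, a log2 fold change of −2.86 (SE 0.22). The summed counts per effective library size were 7.36-fold lower in KO with a counting interval of 5.70 to 9.64, and all 4 libraries held enough reads to pass a floor of 10. *Foxa3* (chr7:19013284-19023538, minus strand) was near the detection limit, with 8 and 5 counts in WT against 3 and 3 in KO. The WT to KO ratio of its summed counts per effective library size was 2.89, with a counting interval from 1.02 to 9.26 that covers counting error alone. The bases before the RefSeq start sites (GRCm38.p6) are shown for these forkhead genes because one of them carries forkhead letters of its own. Capitals mark TGTTTAC, read here from its other strand as GTAAACA, 141 to 135 bases before the *Foxa1* start, and the G-rich letters GGGAGGG. The stretches run 5′ to 3′ on the minus strand, from chr12:57546234-57546263, chr12:57546202-57546231 and chr7:19023575-19023604. The RefSeq *Foxa1* start is chr12:57546111, inside the *Foxa1* span given above, so both *Foxa1* stretches lie within that span.
Foxa1, forkhead letters: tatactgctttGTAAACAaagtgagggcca
Foxa1, G-rich letters: tttggGGGAGGGgatggcGGGAGGGgcgcg
Foxa3, G-rich letters: ggggcgggcccGGGAGGGggtgtcccggct
TGTTTAC or TGTTTGC was found on either strand in 7.29% of the 32851 RefSeq windows of 250 bases before a start, and GGGAGGG in 19.7%. G-rich letters were searched because PATZ1 is known to bind G-rich sequence, and a match here is only a match of letters. The *Foxa1* and *Foxa3* windows had 62.0% and 68.8% G or C against a median of 52.4% over all windows.

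*Hnf4a* (chr2:163506808-163572910, plus strand) had 13 and 16 counts in WT against 1 and 4 in KO. Levels were 0.939 ± 0.0944 (SD, n = 2) CPM in WT and 0.140 ± 0.139 (SD, n = 2) CPM in KO. The log2 fold change of −2.87 had the widest error of the 7 genes that were fitted (SE 0.67), and the counting interval of the 7.72-fold difference ran from 2.96 to 25.6. With KO library 1 left out it was −1.94, and with KO library 2 left out −4.30. The gene has 2 RefSeq start windows. The upstream one held a GATA match, AGATAA, 52 to 47 bases before the start, and the downstream one held G-rich letters that read GGGAGGG on the minus strand, 62 to 56 bases before its start. Both stretches are written on the plus strand with the match in capitals, from chr2:163506793-163506822 and chr2:163547082-163547111 (GRCm38.p6). Both RefSeq starts lie inside the *Hnf4a* span given above, and the first base of that span falls within the upstream stretch.
Hnf4a, upstream start: gaagaatcaataAGATAAccgggcggggtg
Hnf4a, downstream start: ttaactcctacCCCTCCCcacagagcctcc
A GATA match (AGATAA, with T also taken as the first letter and G as the last, on either strand) was present in 26.5% of all windows. No window of the matched genes held the letters AACAAT searched for SOX factors, which 9.42% of windows held, or CAAAGTCCA for HNF4A, which 0.384% held.

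*Dab2* (chr15:6299788-6440712, plus strand) had the most counts of the 8 genes in WT. The libraries held 241 and 300 counts in WT against 32 and 38 in KO, at 17.5 ± 1.90 (SD, n = 2) CPM and 1.79 ± 0.668 (SD, n = 2) CPM. *Dab2* had a log2 fold change of −3.34 (SE 0.22), and the 10.3-fold difference had a counting interval of 8.01 to 13.4. *Gm18888* lies antisense within its span. There were 0.618 and 0.590 *Gata4* plus *Gata6* reads per *Dab2* read in WT and 0.563 and 0.500 in KO, so the GATA genes and *Dab2* were lower by similar factors. The bases before the upstream *Dab2* start are given because they hold a GATA match, TGATAA in capitals, 179 to 174 bases before that start. The window is AT-rich, with 36.8% G or C, and runs on the plus strand of chr15:6299539-6299787 (GRCm38.p6).
Dab2, upstream start: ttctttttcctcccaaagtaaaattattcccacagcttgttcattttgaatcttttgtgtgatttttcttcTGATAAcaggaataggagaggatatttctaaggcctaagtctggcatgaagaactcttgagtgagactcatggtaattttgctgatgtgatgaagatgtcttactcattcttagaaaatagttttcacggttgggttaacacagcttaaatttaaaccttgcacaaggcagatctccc
A second window, before the downstream *Dab2* start, had 60.0% G or C and none of the letters searched. The RefSeq table held windows of 4 of the 8 genes, and *Gata4*, *Gata6*, *Sox17* and *Sox7* were not among them.

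**Figure D2:**
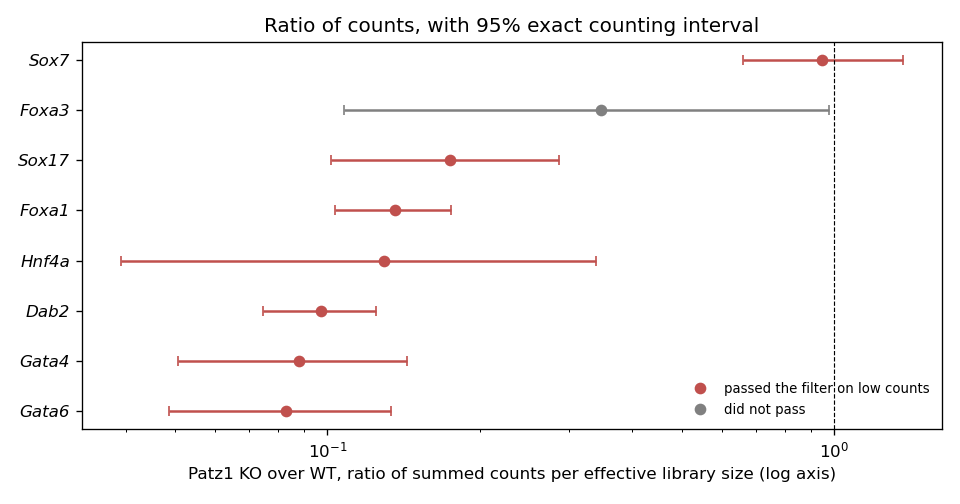
Ratio of summed counts per effective library size, Patz1 KO over WT, on a log axis, with 95% exact counting intervals (bars). The dashed line is a ratio of 1, and the grey gene was left out by the low count filter. The interval of Sox7 ran from 0.661 to 1.37, that of Foxa3 reached up to 0.977, and the other intervals ended lower. Intervals cover counting error alone and not the spread between libraries. The genes were chosen by this same contrast, so no interval is read as a test against 1.

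Levels can be set between genes only per kilobase (kb) of exon. In WT the mean level per kb of exon was 3.76 ± 0.557 CPM for *Foxa1*, 2.39 ± 0.259 for *Dab2*, 1.28 ± 0.0115 for *Gata4* and 0.855 ± 0.116 for *Gata6* (all SD, n = 2). *Sox17* and *Sox7* followed at 0.583 ± 0.0693 and 0.563 ± 0.0955 CPM per kb, and their libraries overlapped. *Foxa3* and *Hnf4a* came last at 0.209 ± 0.0772 and 0.194 ± 0.0195 CPM per kb, overlapped as well, and changed places when coding length was used. In KO, *Foxa1* and *Sox7* led with overlapping levels per kb of exon, 0.522 ± 0.0723 and 0.506 ± 0.204 CPM, ahead of *Dab2* at 0.244 ± 0.0910. *Gata4* (0.112 ± 0.00659), *Sox17* (0.102 ± 0.00267), *Gata6* (0.0771 ± 0.0463) and *Foxa3* (0.0742 ± 0.0191 CPM per kb) lay close together, with *Gata6* overlapping the other 3. *Hnf4a* had the lowest mean at 0.0290 ± 0.0289 CPM per kb, and its libraries overlapped those of *Gata6*. With coding length, *Foxa1* and *Sox7* changed places in KO, as did *Gata4* and *Sox17*. *Sox7* was therefore the sixth gene per kb in WT and shared the top of the order in KO.

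Other members of the same gene families were looked at beside the 8 genes. Of 8 paralogues listed, 4 were tested, 1 was lower (23.8% of all genes tested were), 0 were higher and their median log2 fold change was −0.11 (all genes −0.0014). The lower one was *Foxa2*, the forkhead factor of endoderm, node and floor plate, with 418 and 451 counts in WT against 125 and 100 in KO (log2 fold change −2.35, SE 0.14, edgeR adjusted p = 5.27e-10). *Gata2*, a blood and interneuron factor, had 37 and 28 counts in WT against 73 and 34 in KO (0.28, adjusted p = 0.483). *Gata3* was at −0.29 (adjusted p = 0.425) and *Dab1*, the neuronal adaptor of Reelin signalling, at 0.06 (adjusted p = 0.606) with 1254 and 1252 counts in WT against 2051 and 1429 in KO. *Gata1*, *Gata5*, *Hnf4g* and *Sox18* had 8 or fewer counts in every library and were not tested.

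Of 21 other endoderm regulators, 11 were tested, 4 were lower and 0 were higher, with a median of −0.34 (all genes 23.8% lower and 24.1% higher). *Foxa2* was one, and *Sall4*, a zinc finger factor of pluripotent and primitive endoderm cells, was another, with 142 and 157 counts in WT against 59 and 66 in KO (log2 fold change −1.64, SE 0.23, edgeR adjusted p = 1.24e-05). *Klf5*, an epithelial and early embryo factor, had 16 and 17 counts in WT against 7 and 5 in KO (−1.85, adjusted p = 0.00546). It passed the filter through its WT counts and had to be lower in KO to be tested. Under a floor of 10 counts in all libraries, 3 of the list were lower. *Tbx3*, named after its values were seen, made up the 4 (−0.83, adjusted p = 0.0161). *Prox1*, a homeobox factor of liver, lens and neural progenitors, was at −0.34 (adjusted p = 0.0532), and *Zfpm1*, a GATA cofactor, at 0.26 (adjusted p = 0.210). Some of the listed genes were barely read: *Eomes*, *Mixl1*, *Gsc* and *Cer1* had 6 or fewer counts in every library and *Pdx1* had 0. Others were read, among them *Lhx1*, with 138 and 175 counts in WT against 265 and 201 in KO (0.17, adjusted p = 0.396). *Hhex* had 9 and 7 counts in WT against 17 and 16 in KO (0.63, adjusted p = 0.302). Both *Lhx1* and *Hhex* were named after their values were seen. Without WT library 1 or without WT library 2 the number lower was 2, and without KO library 2 it was 6.

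Among 15 genes of the signals that induce endoderm, 9 were tested, 4 were lower and 0 were higher (median −0.30), beside 23.8% lower and 47.9% called in either direction over all genes. *Pdgfra*, the receptor that marks primitive endoderm and also mesoderm and glial precursors, had 463 and 626 counts in WT against 46 and 46 in KO. Its log2 fold change was −3.96 (SE 0.18, edgeR adjusted p = 2.45e-11). *Bmp4*, a secreted ligand, had 87 and 101 counts in WT against 28 and 22 in KO (−2.31, SE 0.27, adjusted p = 1.69e-06). *Fgfr2* (−0.43, adjusted p = 8.75e-04) and *Smad4* (−0.30, adjusted p = 0.0165, named after its values were seen) were lower by little. *Smad2* was at −0.02 (adjusted p = 0.883) and *Fgfr1* at 0.21 (adjusted p = 0.0684). The ligands *Nodal* and *Fgf4* were at 4 or fewer counts in every library.

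DAB2 works with cargo receptors and clathrin adaptors. Of 16 listed, 15 were tested, 5 were lower and 3 were higher, with a median of −0.12, and these counts are near the shares over all genes tested (23.8% lower and 24.1% higher). *Cubn*, the cubilin receptor that takes up vitamin and protein cargo in visceral endoderm, had 159 and 224 counts in WT against 51 and 17 in KO. Its log2 fold change was −2.92 (SE 0.26, edgeR adjusted p = 9.48e-08), and −3.60 without KO library 1. Its partner *Lrp2*, megalin, had 402 and 498 counts in WT against 521 and 295 in KO (−0.57, SE 0.13, adjusted p = 0.00125). *Itgb1* (−0.12, adjusted p = 0.317) and *Lrp1* (−0.17, adjusted p = 0.197), general receptors, did not pass. The 3 higher genes, named after their values were seen, were the clathrin adaptor genes *Ap2b1* (0.41), *Ap2m1* (0.31) and *Eps15* (0.24). None of the 3 passed without WT library 1 or without WT library 2.

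Products of visceral and parietal endoderm were also listed, and whether the 8 genes act on them was not tested. Of 16 visceral endoderm products, 8 were tested, 6 were lower (against 23.8% of all genes tested) and 0 were higher, with a median of −3.04. Among those lower, *Fgb*, *Ihh*, *Ttr* and *Spink3* had a KO library under 10 counts (*Ttr* and *Spink3* named after their values were seen). These genes passed the filter through their WT counts and had to be lower in KO to be tested. The number lower was 2 under a floor of 10 counts in all libraries, so nothing is read from 6 of 8 against 23.8%. The summed level of all 16, tested or not, was 38.5 and 44.3 CPM in WT and 6.43 and 6.38 CPM in KO. The ratio was 6.47. Most of the WT sum came from *Fgb* (12.48 and 13.01 CPM) and *Rbp4* (16.44 and 20.18 CPM), so it does not describe the list as a whole. *Fgb*, the fibrinogen beta chain, had 186 and 207 counts in WT against 14 and 7 in KO (log2 fold change −4.62, SE 0.27, edgeR adjusted p = 3.37e-10), whereas its partner chains *Fga* and *Fgg* had 5 or fewer in every library. *Rbp4*, the retinol carrier, had 245 and 321 counts in WT against 26 and 24 in KO (−3.90, SE 0.22, adjusted p = 2.47e-10). *Ihh*, a Hedgehog ligand, had 31 and 28 in WT against 9 and 1 in KO (−2.96, SE 0.52, adjusted p = 1.47e-04), and was at −4.83 without KO library 1 and −2.34 without KO library 2. *Afp*, the best known visceral endoderm product, did not pass, with 11 and 15 counts in WT against 12 and 21 in KO (−0.04, adjusted p = 0.959). *Trf*, transferrin, was at 0.34 (adjusted p = 0.479). *Alb* had at most 1 count in a library.

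Of 15 parietal endoderm products, all were tested, 13 were lower (against 23.8% of all genes tested) and 1 was higher, with a median of −2.59. Their summed level was 1800 and 1961 CPM in WT and 702 and 641 CPM in KO. Among those lower, *Thbd* (named after its values were seen) had 29 and 15 counts in WT against 2 and 7 in KO. It passed the filter through its WT counts. Under a floor of 10 counts in all libraries, 12 parietal endoderm products were lower. *Col4a1* had 7110 and 8898 counts in WT against 1270 and 971 in KO (log2 fold change −3.23, SE 0.11, edgeR adjusted p = 1.16e-12). *Lamb1* had 1622 and 2045 in WT against 395 and 255 in KO (−2.91, SE 0.11, adjusted p = 2.01e-12), and *Col4a2* was at −2.59 (SE 0.10). The collagen IV pair overlaps on opposite strands, and both collagens and laminins are basement membrane proteins of many tissues besides parietal endoderm. *Plat*, a protease that parietal endoderm and neurons make, was at −0.14 (adjusted p = 0.221). The higher gene, *Pth1r*, was at 0.60 (adjusted p = 5.13e-05, named after its values were seen).

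**Figure D3:**
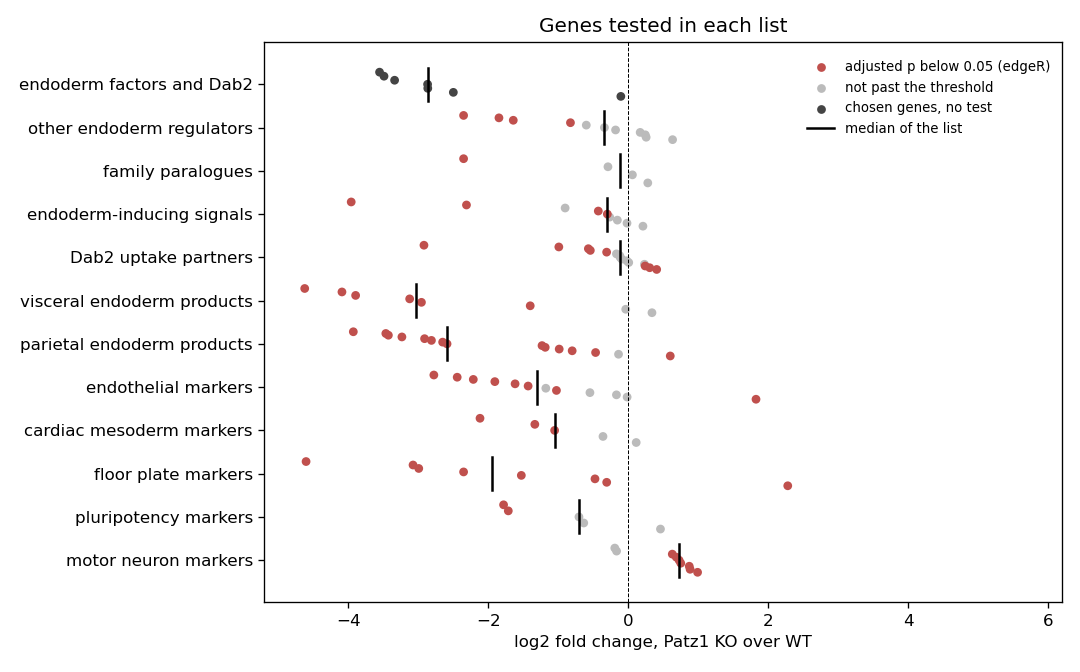
Log2 fold change (Patz1 KO over WT) of each gene tested in each list. Red points passed an edgeR adjusted p of 0.05, grey points did not, dark points are the 7 endoderm genes fitted (no test), and bars are list medians. Medians were −3.04 for visceral and −2.59 for parietal products, −0.11 for paralogues, −0.12 for Dab2 partners and 0.73 for motor neuron markers. Gata4, Gata6, Sox17 and Hnf4a passed the filter through their WT counts and had to be lower in KO. The same holds for Fgb, Ihh, Ttr and Spink3 among the visceral products. Nothing is read from how near the lists lie to the chosen genes.

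Markers of other cell types also passed the test, and their part in the endoderm values was not tested. Of 12 endothelial markers, all were tested, 7 were lower (against 23.8% of all genes tested) and 1 was higher (median −1.30), while their summed level was 22.5 and 25.01 CPM in WT and 25.2 and 21.9 CPM in KO. *Cdh5*, the endothelial cadherin, had 28 and 54 counts in WT against 16 and 4 in KO (log2 fold change −2.44, edgeR adjusted p = 2.33e-04) and was at −3.43 without KO library 1. *Cldn5*, a tight junction protein, had 30 and 38 in WT against 9 and 4 in KO (−2.78, adjusted p = 4.80e-05). The higher gene was *Egfl7*, with 68 and 72 counts in WT against 400 and 264 in KO (1.83, adjusted p = 1.03e-07). It gave 4.56 and 4.53 CPM of the summed level in WT and 16.5 and 15.7 CPM in KO. Most of the KO sum thus came from this 1 gene. *Egfl7* overlaps *Gm20532* and *Mir126a* on its own strand and *Agpat2* and *Mir126b* on the other. The annotation and strand setting of the counting are not given, so its reads may not be separated from theirs. *Pecam1* (−0.02, adjusted p = 0.981) and *Esam* (−0.55, adjusted p = 0.335) did not pass. Under the floor of 10 counts in all libraries, 2 endothelial markers were lower, so 7 of 12 has the same limit as the visceral endoderm count.

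Of 12 cardiac mesoderm markers, 5 were tested, 3 were lower (against 23.8% of all genes tested) and 0 were higher (median −1.05), with a summed level of 19.1 and 15.3 CPM in WT and 10.02 and 12.9 CPM in KO. *Nkx2-5*, the defining cardiac factor, had 0 counts in both WT libraries and 1 and 3 in KO. *Hand2*, which is also used in neural crest, was at −2.12 (edgeR adjusted p = 2.00e-04) and at −2.91 without KO library 2 and −1.46 without KO library 1. *Mef2c* (−1.05, adjusted p = 0.00355) and *Tbx5* (−1.33, adjusted p = 0.0178) were lower. *Tbx5*, with 26 and 21 counts in WT against 19 and 6 in KO, passed the filter through its WT counts. *Tbx5* lost its call without WT library 1 (−1.14) and without KO library 2 (−0.95), and was at −2.07 without KO library 1. *Tbx20* was at 0.11 (adjusted p = 0.714) and *Actc1* at −0.36 (adjusted p = 0.480).

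Of 8 floor plate markers, all were tested, 7 were lower (against 23.8% of all genes tested) and 1 was higher (median −1.94). *Foxa2* belongs to this list as well as to endoderm. *Shh*, the Hedgehog ligand of the floor plate, had 558 and 628 counts in WT against 118 and 80 in KO (log2 fold change −2.99, SE 0.13, edgeR adjusted p = 1.56e-11). *Ferd3l*, a bHLH factor, had 82 and 106 counts in WT against 6 and 4 in KO (−4.60, adjusted p = 2.18e-08). *Corin* had 16 and 19 counts in WT against 10 and 6 in KO. Both passed the filter through their WT counts and had to be lower in KO to be tested. The count of 7 of 8 was thus in part fixed by the filter. *Corin* (−1.53), *Ntn1* (−0.48) and *Spon1* (−0.31) were lower, and the calls of *Corin* and *Spon1* were lost without WT library 1 or without WT library 2, that of *Spon1* also without KO library 2. *Nkx2-9*, a homeobox gene at the edge of the floor plate, was higher, with 50 and 85 counts in WT against 506 and 364 in KO (2.28, SE 0.18, adjusted p = 1.94e-08).

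Of 10 pluripotency markers, 5 were tested, 2 were lower and 0 were higher (median −0.70, all genes 23.8% lower and 47.9% called), with a summed level of 10.9 and 14.8 CPM in WT and 7.42 and 9.24 CPM in KO. *Klf4* had 37 and 61 counts in WT against 15 and 22 in KO (log2 fold change −1.78, edgeR adjusted p = 7.98e-04). *Dppa5a*, with 12 and 18 counts in WT against 8 and 4 in KO, passed the filter through its WT counts. *Dppa5a* was at −1.71 (adjusted p = 0.0118), a call lost without WT library 1 (−1.94) and without WT library 2 (−1.44). *Nanog*, with 57 and 75 counts in WT against 46 and 59 in KO, was at −0.70 (adjusted p = 0.0551), a call gained without KO library 2 (−1.16). *Zfp42* was at 0.46 (adjusted p = 0.298). *Pou5f1*, the defining marker, had 7 and 7 counts in WT against 4 and 3 in KO, so the libraries titled as ESCs had next to none of its RNA.

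**Figure D4:**
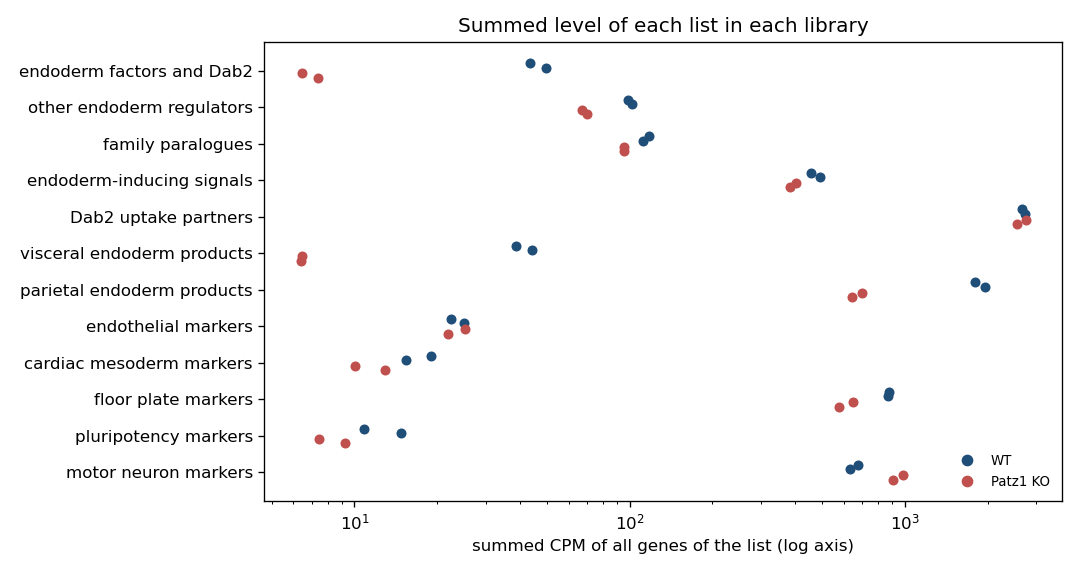
Summed level of every listed gene in each library, in CPM on a log axis (WT blue, Patz1 KO red, 2 libraries each). The sums of the endoderm genes and of visceral endoderm products stand farthest apart. They are 43.4 and 49.8 against 6.43 and 7.39 CPM, and 38.5 and 44.3 against 6.43 and 6.38 CPM. Most of the visceral sum in WT was Fgb (12.48 and 13.01 CPM) and Rbp4 (16.44 and 20.18 CPM). The endothelial sums (22.5 and 25.01 against 25.2 and 21.9 CPM) overlap. Most of the endothelial sum in KO was Egfl7 (16.5 and 15.7 CPM).

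The genes with the most similar profiles were sought for *Gata4*, *Sox17*, *Hnf4a* and *Dab2*, and not for the forkhead genes, by the distance between log2 CPM values centred on each gene's mean over the 4 libraries. This measure uses the contrast that chose the genes, and it is given as a description. For *Gata4* the nearest of 13363 genes were *Trabd2b* (distance 0.138), *Dsp* (0.143) and *Ptgfr* (0.160). *Trabd2b* had 102 and 110 counts in WT against 14 and 10 in KO, and *Dsp*, the desmosome protein desmoplakin, had 885 and 1065 in WT against 178 and 115 in KO. For *Sox17* they were *Pdgfc*, a growth factor (0.0528), *Cobl* (0.0782) and *Itga8*, an integrin chain (0.0907). For *Hnf4a* they were *Stard8* (0.255), *Dnm3os* (0.271) and *St3gal6* (0.276). For *Dab2* they were *Arg1*, an arginase (0.146), *Has2*, a hyaluronan synthase (0.153), and *Gata6* itself (0.230). *Arg1* had 492 and 605 counts in WT against 61 and 82 in KO. Within a distance of 0.5 there were 36 genes for *Gata4*, 100 for *Sox17*, 19 for *Hnf4a* and 26 for *Dab2*.

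The genes next to the 8 on the chromosome were called about as often as all genes tested (47.9%). Of the 16 nearest tested neighbours, 3 were lower, 4 were higher and 9 did not pass, with a median log2 fold change of 0.15 and a range from −0.48 to 1.13. *Fam167a* (0.28) and *Neil2* (−0.45), on either side of *Gata4*, did not pass (edgeR adjusted p = 0.352 and 0.384). *Mib1* was at −0.09 (adjusted p = 0.486) and *Rbbp8* at −0.34 (adjusted p = 0.0111) beside *Gata6*. *Sstr1*, a somatostatin receptor gene on one side of *Foxa1*, was the highest, with 53 and 63 counts in WT against 184 and 150 in KO (1.13, SE 0.21, adjusted p = 2.44e-04), and *Mipol1* on the other side was at 0.59 (adjusted p = 0.0309). *Rictor*, beside *Dab2*, was at −0.25 (adjusted p = 0.0354). *Fitm2* was at 0.52 (adjusted p = 0.0197) beside *Hnf4a*, and *Sympk* at 0.26 (adjusted p = 0.0250) beside *Foxa3*.

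*Gata4* and *Sox7* lie 672 kb apart, with 5 tested genes between them. *Pinx1*, next to *Sox7*, was at −0.48 (edgeR adjusted p = 0.00819), *Mtmr9* at 0.31 (adjusted p = 0.0105) and *Xkr6* at 0.48 (adjusted p = 0.0625). *Tdh*, a threonine dehydrogenase gene active in mouse ESCs, had 50 and 47 counts in WT against 0 and 6 in KO (−4.35, SE 0.59, adjusted p = 9.41e-06). These genes were looked at after the values of *Gata4* and *Sox7* were known.

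**Figure D5:**
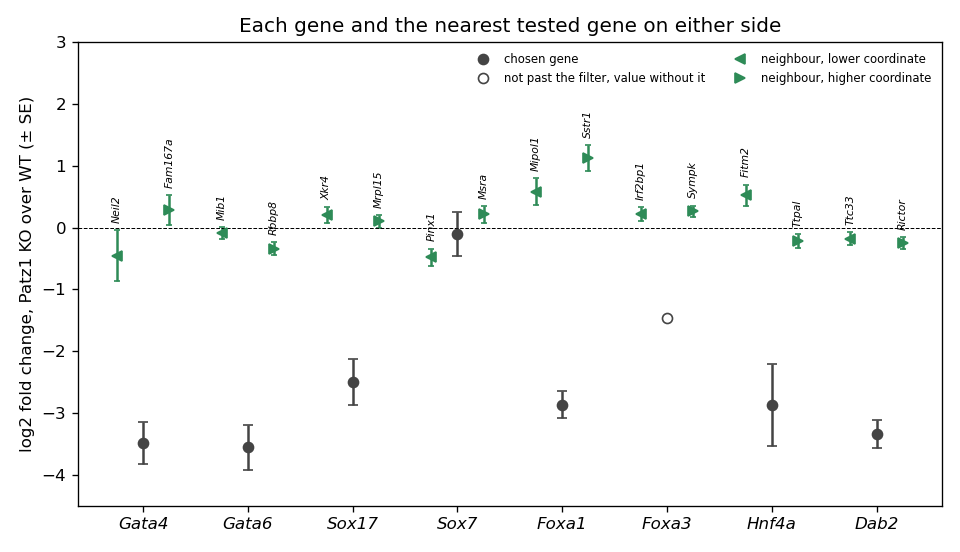
Log2 fold change (Patz1 KO over WT, bars are SE) of each endoderm gene (dark circles) and of the nearest tested gene on its lower and higher coordinate side (green triangles, named). The open circle is Foxa3 from a fit without the filter on low counts (−1.46), and neighbours lie between −0.48 and 1.13.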

How the data were processed

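The deposited values are raw counts per gene symbol, which the authors made from stranded, ribosomal RNA depleted libraries mapped to mm10. The submitters' processing notes list TopHat2 2.1.1, Bowtie2 2.3.1, featureCounts 1.6.2 and DESeq2, and the annotation and strand setting of the counting are not given in the sources used here. Replicates are independent differentiations. No line of the files lacked a gene name.

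Counts were scaled by TMM, filtered with filterByExpr (minimum count 10) and tested, two-sided, with edgeR's quasi-likelihood test (edgeR 4.0.16, limma 3.58.1, R 4.3.3). P-values were adjusted by Benjamini-Hochberg over all 14269 genes, with a threshold of 0.05. The biological coefficient of variation was 7.71%. The code was tested on simulated data. SE was obtained from each gene's log2 fold change and its F statistic. Counting intervals (95%, exact, on counts summed over the 2 libraries of a group) cover counting error only.

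The 8 genes, the 11 lists and the tests were chosen with earlier results of these data known. Named were the 8 genes, *Patz1*, every gene of a list of 8 or fewer, and of longer lists the 3 genes with the smallest p and the 2 most counted among those untested or not called. The 3 nearest profiles (genes of at least 1 mean CPM) and the nearest tested neighbours were also named. Exceptions are marked as named after their values were seen, and defining markers given only to show low counts were also taken outside that rule. Some genes that the rule names are not reported here. Positions, exon and coding lengths came from GENCODE M21 on GRCm38, and promoter windows from RefSeq (GRCm38.p6), searched on both strands. Alternatives were DESeq2 1.42.0's Wald test and size factors, library size alone, other filters, a replicate block, coding length, and leaving out each library.

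Same-numbered libraries did not deviate together (correlation of replicate differences 0.0304), so the number was not taken as a pairing. Replicates were not the same library, since chi-square per gene was 9.87 within WT and 22.0 within KO.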

Additional observations from a re-analysis of the deposited data

How the results depend on the processing

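Of 66 alternative fold changes for the 7 endoderm genes that were fitted (not *Foxa3*), 55 moved by less than the replicate SD, 11 moved by more and 0 turned a called direction. All 11 came from leaving out a library. Under a floor of 10 counts in all libraries, fewer genes could be tested, and the number lower fell to 2 for the endoderm genes, 2 for visceral endoderm products and 2 for endothelial markers. With DESeq2's Wald test the number lower was 2 for other endoderm regulators and 1 for pluripotency markers. With the replicate block, 1 endoderm-inducing signal gene was called higher, *Pecam1* was at 0.021, 6 endoderm genes were called lower, and 7363 genes were called in all. Leaving out each library in turn gave 4521 to 7816 genes called in either direction and 2175 to 3831 lower, with the fewest without WT library 2. It gave 2 to 6 other endoderm regulators lower and 0 to 1 higher, 0 to 4 *Dab2* partners higher, 1 to 3 pluripotency markers lower, 0 to 1 inducing signals higher and 0 to 1 motor neuron markers lower. Of 530 alternative values for other named genes, 484 kept direction and side of the threshold, 16 lost the call, 15 gained it and 15 turned sign, all of the last in genes not called. Without a filter *Smad2* was at 0.0044 and *Pecam1* at 0.0059, and with DESeq2's Wald test *Afp* was at 0.040. Leaving out each library gave ranges that cross 0 for *Actc1* (−0.86 to 0.39), *Afp* (−0.75 to 0.57), *Esam* (−0.96 to 0.064), *Gata2* (−0.056 to 0.54), *Lrp1* (−0.36 to 0.0081), *Pecam1* (−0.42 to 0.57), *Smad2* (−0.066 to 0.039), *Tbx20* (−0.17 to 0.40) and *Trf* (−0.26 to 0.70). The cause of these changes was not tested, beyond the smaller number of genes or samples. Fits without a library assume that the lone library varies like the other group. With 2 libraries per group and 1 to 12 reads in KO libraries, depth limits *Gata4*, *Gata6*, *Sox17*, *Hnf4a* and *Foxa3* most.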
